A study of Mus musculus with 4 samples.

Results

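The lower aldosterone dose was set against its vehicle, ethanol, in mDCT cells, an immortalised mouse line derived from the distal convoluted tubule of the kidney, on 2 of the 4 arrays of the series. Each gene with a single symbol was represented by its probe set of highest mean log2 signal over the 4 arrays, and 6935 of 18193 such genes had a mean signal (geometric mean) of 420 or more and were compared. The limit fell between Rbm15b, which entered with a mean signal of 420.1, and Gatad2b, which did not, with 419.8. All 4 cultures had been transfected by lipid reagent with a plasmid for 3xFLAG-tagged human mineralocorticoid receptor (MR). At 48 h they received ethanol or spironolactone, an MR antagonist, and 2 h later ethanol or aldosterone for 3 h. The 2 arrays compared held cells given ethanol and cells given 1 nM aldosterone. The other 2 arrays, which serve only for orientation, held cells given 100 nM aldosterone and cells given 100 nM aldosterone after 5 µM spironolactone. The line stands for cells in culture that carry an added receptor, and the share of cells that took up the plasmid is not given in the sources used here. With 1 array per treatment no difference can be set against the spread between replicates, so every value below describes a pair of arrays and no test was possible.

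Aldosterone is the steroid hormone that makes the distal nephron retain sodium. It binds MR in the cytoplasm, the complex enters the nucleus, and there it binds DNA elements shared with the glucocorticoid receptor and changes the transcription of genes such as Sgk1, whose kinase raises the activity of sodium transporters. MR binds aldosterone with high affinity, in the range of circulating concentrations, while the glucocorticoid receptor binds it only at much higher ones.

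Each array had a mean signal of 500.0 once 2% of probe sets were trimmed at each end, so the deposited values carry a common scale. Second and further probe sets of a gene were counted from a mean signal of 56.1, the overall median, upward, and dimmer ones are left out of every statement on other probe sets unless named. Among the compared genes the median signal was 1421 with ethanol and 1409.9 with 1 nM aldosterone, and the median log2 difference of 1 nM aldosterone from ethanol was -0.01. Only some markers of the labelled cell type passed the signal limit. Of 15 distal convoluted tubule markers on the array, Wnk1, Trpm7 and Atp2b1 alone passed the signal limit, and 6 lay under the median signal of all probe sets, 56.1, including Slc12a3, the sodium-chloride cotransporter that defines the segment. Of 6 general kidney epithelium markers on the array, Cdh16 and Pax8 alone passed the limit, and 3 lay under the median signal. Of 5 proximal tubule markers, Lrp2 and Aqp1 alone passed the limit, and 0 lay under the median signal. None of the principal cell, intercalated cell, fibroblast, endothelial and leukocyte markers passed the limit. The summed signal of the distal markers ranged from 12336 to 13945 over the 4 arrays, and was 12336 with ethanol and 13265 with 1 nM aldosterone. Most of it came from Wnk1 (6887 with ethanol and 7413 with 1 nM), Trpm7 (2557 and 3162) and Atp2b1 (1796 and 1632). The sum therefore follows these 3 genes, and the next Wnk1 probe set differed by -0.22.

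The promoters of the genes at the ends of the comparison are shown first, because corticosteroid receptors bind a palindrome whose arms are the hexamers AGAACA and TGTTCT. Each run holds the 250 bases before a RefSeq transcription start in the assembly GRCm38.p6, 5′ to 3′ on the gene's strand, in lower case with any such hexamer, on either strand, in capitals. Cpt2 was the highest gene of the comparison and Fkbp5 is a steroid target described with the corticosteroid-responsive genes. Cdkn2a was the lowest gene, shown for both of its starts, and Kctd7 is one of the lower genes that holds the hexamer. They lie at chr4:107923590-107923839 (minus strand), chr17:28486150-28486399 (minus), chr4:89282193-89282442 and chr4:89294620-89294869 (both minus), and chr5:130144633-130144882 (plus).
Cpt2: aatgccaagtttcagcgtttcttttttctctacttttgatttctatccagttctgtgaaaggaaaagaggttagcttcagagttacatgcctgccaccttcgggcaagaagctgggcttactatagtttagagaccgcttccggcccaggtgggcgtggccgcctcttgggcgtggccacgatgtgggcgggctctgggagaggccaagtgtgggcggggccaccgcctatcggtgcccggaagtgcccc
Fkbp5: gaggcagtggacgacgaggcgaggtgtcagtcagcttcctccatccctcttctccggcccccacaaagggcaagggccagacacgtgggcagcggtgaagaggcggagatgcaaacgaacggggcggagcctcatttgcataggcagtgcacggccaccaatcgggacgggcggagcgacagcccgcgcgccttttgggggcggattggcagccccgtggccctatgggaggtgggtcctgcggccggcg
Cdkn2a, start nearer the gene's end: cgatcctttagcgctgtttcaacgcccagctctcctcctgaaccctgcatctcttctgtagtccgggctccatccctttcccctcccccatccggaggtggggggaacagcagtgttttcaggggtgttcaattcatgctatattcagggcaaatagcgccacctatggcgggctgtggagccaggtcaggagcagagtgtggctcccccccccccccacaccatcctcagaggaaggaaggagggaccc
Cdkn2a, start farther upstream: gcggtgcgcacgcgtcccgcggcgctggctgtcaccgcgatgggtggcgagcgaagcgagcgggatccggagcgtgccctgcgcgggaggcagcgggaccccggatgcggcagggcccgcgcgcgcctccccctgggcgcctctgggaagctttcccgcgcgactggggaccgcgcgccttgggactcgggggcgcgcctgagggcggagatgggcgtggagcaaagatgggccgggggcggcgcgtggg
Kctd7: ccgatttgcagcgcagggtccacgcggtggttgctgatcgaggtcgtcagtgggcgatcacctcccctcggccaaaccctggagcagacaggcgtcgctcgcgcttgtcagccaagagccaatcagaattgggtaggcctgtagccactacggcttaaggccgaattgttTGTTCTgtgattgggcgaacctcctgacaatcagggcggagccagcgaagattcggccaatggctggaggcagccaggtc

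In windows of 300 bases (250 before to 50 after the start), the hexamer was found in 13.2% of the 5753 compared genes that had a promoter in the table. Genes past 1.5-fold made up 0.317% of the compared genes in each direction. Among the higher ones 1 of 16 with a promoter held the hexamer (Rreb1), and among the lower ones 4 of 22 did, including Kctd7, Kdm5c and Znrf1. Among all 27025 genes of the table the share was 21.3%. The full palindrome, both hexamers 3 bases apart, occurred in 0 of the genes past 1.5-fold and in 1 compared gene. A match describes letters in this window and not receptor binding.

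Most of the measured transcriptome lay close to ethanol after 3 h of 1 nM aldosterone. Of the 6935 genes, 92.0% differed by less than 1.2-fold and 72.1% by less than 1.1-fold. A size of 1.5-fold, a log2 difference of 0.58, was reached upward by 22 genes (0.317%) and downward by 22 (0.317%). Without probe sets marked as matching several transcripts the counts were 19 higher and 10 lower. At 2-fold the counts were 3 higher (0.0433%) and 1 lower (0.0144%). Col4a5 (0.60) was the last gene counted as higher and Gpr108 (0.58) the first left out, while Tmem14c (-0.60) was the last counted as lower and Rpusd4 (-0.58) the first left out.

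The width of the distribution depended on signal. The standard deviation of the log2 difference across genes was 0.20 for signals of 420 to 840, 0.16 for 840 to 1680, 0.12 for 1680 to 3360 and 0.10 above 3360. Accordingly, 25 of the 44 genes past 1.5-fold came from the 1977 genes of the dimmest bin and 2 from the 1530 brightest, Ube2d2a and Cdkn2a. Across all compared genes the standard deviation was 0.154, and over the 6 possible pairs of arrays it ranged from 0.136 to 0.154. The pair of 1 nM aldosterone and ethanol had 44 genes past 1.5-fold and the other 5 pairs, which share arrays with it or with each other, between 17 and 32.

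**Figure D1:**
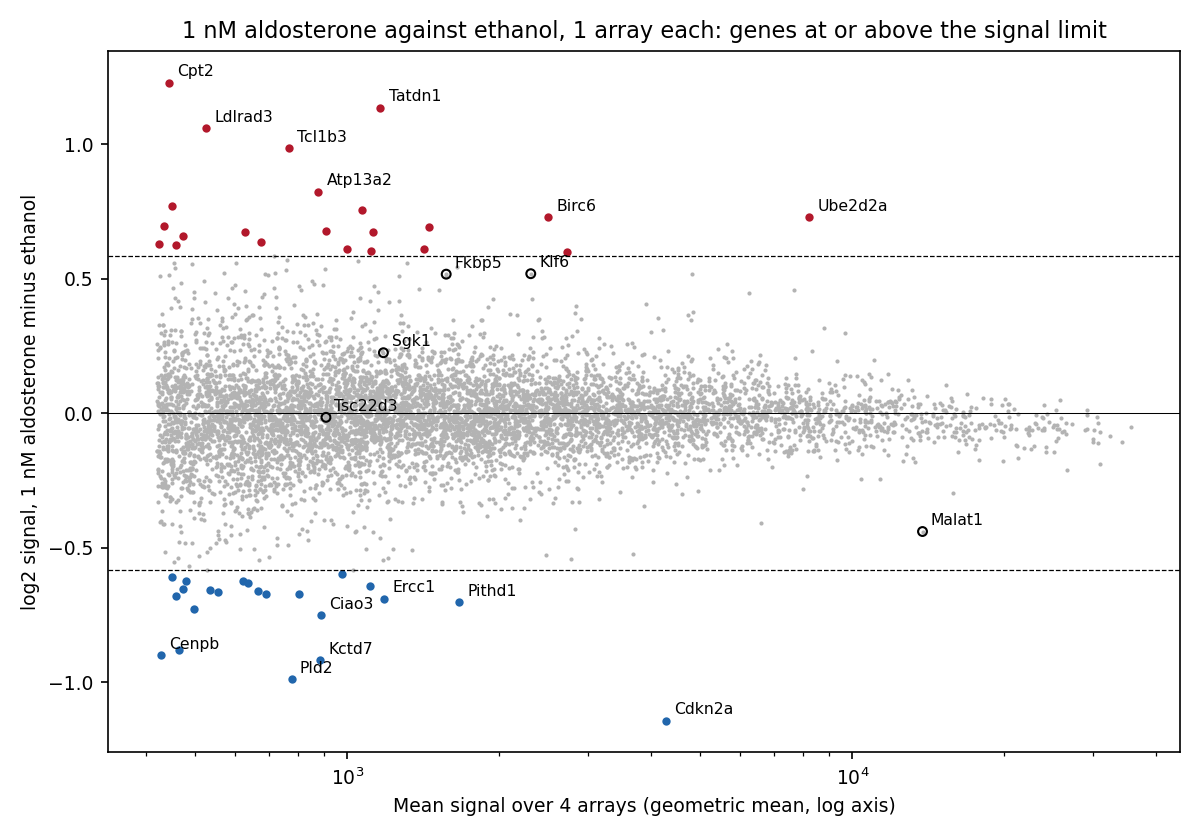
Log2 difference of signal, 1 nM aldosterone minus ethanol (1 array each), against the geometric mean signal over 4 arrays on a log axis, for 6935 genes (1 point each). Red and blue points are the 22 genes at least 1.5-fold higher and the 22 at least 1.5-fold lower (dashed lines), open circles mark 5 genes discussed in the text, and the cloud narrows from the dim to the bright end, where Ube2d2a and Cdkn2a stand outside it.

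The highest gene was Cpt2, which encodes the inner-membrane carnitine palmitoyltransferase that hands long-chain fatty acids to mitochondrial oxidation. Its signal was 261 with ethanol and 612 with 1 nM aldosterone, and 475 with 100 nM and 509 after spironolactone. The ethanol array was thus the low one against all 3 others, and the difference with 1 nM was 1.23 (2.34-fold); no other Cpt2 probe set passed the median signal. Ldlrad3, a membrane protein of the LDL receptor class A family, had signals of 338 with ethanol, 704 with 1 nM, 679.95 with 100 nM and 473 after spironolactone. Here both doses of aldosterone alone stood at about the same level and above the antagonist array, and the difference with 1 nM was 1.06. Tcl1b3, a member of the Tcl1 cluster, had 502, 993, 697 and 985 in the same order of arrays, and Tatdn1, a putative nuclease, had 683, 1501, 1218 and 1461. Both were read by probe sets of the x class, in which single probes can also match other transcripts, and the next brightest Tatdn1 probe set differed by 0.37 while the others differed by 0.02, -0.62 and -0.39.

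Atp13a2, a lysosomal polyamine transporter, had signals of 673 with ethanol, 1189.8 with 1 nM, 999 with 100 nM and 736 after spironolactone. It shared with Ldlrad3 and Lsm12 (785, 1325, 1259 and 991) an order in which both aldosterone-alone arrays were above both others. The next Atp13a2 probe set, however, differed by -0.24. That of Lsm12, an RNA-binding Lsm protein, differed by 0.35 but did not share the order. It read 510, 651, 492 and 632, with 100 nM lowest. Tfcp2l1, a grainyhead-like transcription factor of distal nephron and collecting duct that is also on the corticosteroid list, had 341, 553, 467 and 404, with 1 nM highest, both other aldosterone arrays between, and a difference of 0.70. Tsc22d4, a leucine zipper protein of the family that includes GILZ, had 336, 574, 431 and 495. Among genes with 2 or more probe sets of at least median signal, it was the one in which all passed 1.5-fold, at 0.77 and 0.69. The second of these probe sets was dim, with a mean signal of 67.9.

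Ube2d2a, a ubiquitin-conjugating enzyme, had a signal of 5937 with ethanol and 9835 with 1 nM aldosterone, and 8879 and 8748 in the other arrays. The ethanol array was the low one, but the 3 other Ube2d2a probe sets above the median signal differed by -0.02, 0.01 and 0.02. Birc6, a large ubiquitin ligase that blocks apoptosis, had 1831, 3035, 2578 and 2701, and its 3 others above the median signal differed by 0.04, 0.68 and -0.22. The endocytic receptor Ly75 (1110.4, 1793, 1458 and 1528) and the chondroitin sulphate enzyme Csgalnact2 (748, 1197, 815 and 929) completed the highest 12, at 0.69 and 0.68.

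The remaining 10 higher genes, named because they passed 1.5-fold and not by rank, lay between 0.60 and 0.67. They included the regulatory PI3-kinase subunit Pik3r3 (489 with ethanol and 779.6 with 1 nM), the glycosyltransferase C1galt1, the carnitine acetyltransferase Crat, the Ras-responsive zinc finger protein Rreb1, the ribosome biogenesis factor Las1l, the vitamin K epoxide reductase paralogue Vkorc1l1, the basement membrane collagen Col4a5, Acyp1 and Zfp995. Nrg1, which encodes the ErbB ligand neuregulin, had 414 with ethanol, 653 with 1 nM, 418 with 100 nM and 441 after spironolactone, so the 1 nM array stood alone. Vkorc1l1 was the other clear case of this kind, with 952, 1447, 1023 and 1094. The next probe sets of C1galt1, Crat and Zfp995 differed by -0.18, -0.03 and -0.02. Those of Acyp1, Vkorc1l1, Col4a5 and Rreb1 differed by 0.20, 0.27, 0.17 and 0.09.

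**Figure D2:**
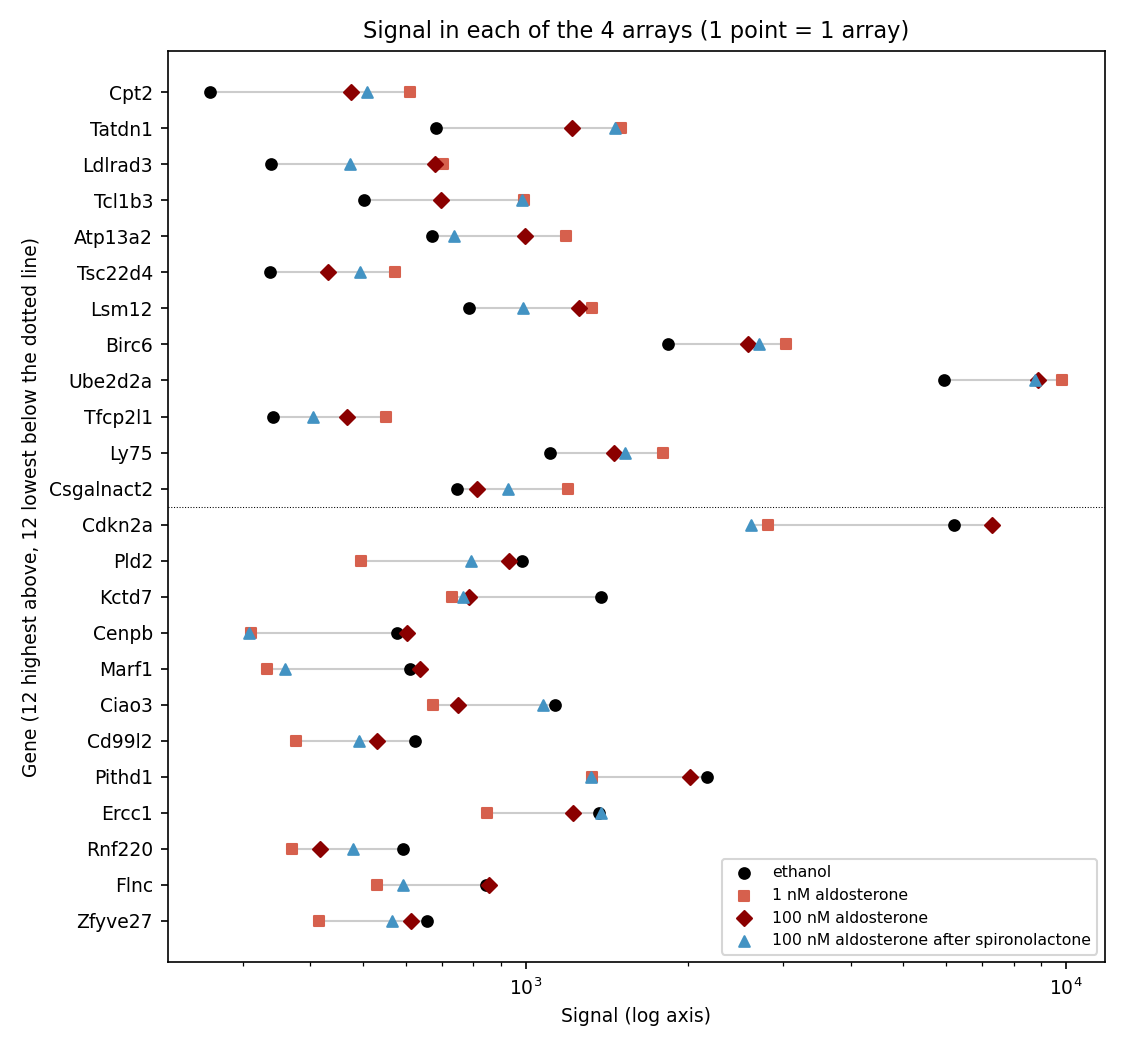
Signal on a log axis in each of the 4 arrays (1 point per array) for the 12 highest and the 12 lowest genes of 1 nM aldosterone against ethanol. In all 12 upper rows the ethanol array (black circles) is the lowest of 4 and the 1 nM array the highest. The genes were picked on the gap between these arrays. In the lower rows Cdkn2a, Cenpb, Marf1 and Pithd1 part ethanol and 100 nM from 1 nM and spironolactone.

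The lowest gene was Cdkn2a, the locus of the cell cycle inhibitor INK4a and the p53 activator ARF. Its signal was 6209.5 with ethanol, 2812 with 1 nM aldosterone, 7295 with 100 nM and 2616 after spironolactone. The 4 arrays fell into 2 levels, with ethanol and 100 nM high and the others low, and the difference of 1 nM from ethanol was -1.14 (2.21-fold lower) on the only probe set of the gene. Cenpb, which binds centromeric repeats, showed the same split, with 579, 310.4, 603 and 308, as did Marf1, an RNA-binding factor that limits transcripts in oocytes, with 612, 332, 639 and 359. Pithd1 followed with 2165.7, 1329.9, 2015 and 1320.25. Cenpb had 1 probe set above the median signal, the next Marf1 probe set differed by -0.35, and the next one of Pithd1, of low signal, by 0.01.

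Pld2, a phospholipase D, had signals of 986 with ethanol, 497 with 1 nM, 933 with 100 nM and 792 after spironolactone, so the 1 nM array was the low one, and the difference was -0.99. Ercc1, a subunit of a DNA repair nuclease, was likewise low in the 1 nM array alone, with 1370.4, 849, 1222 and 1379. Their next probe sets differed by -0.21 and -0.03. Kctd7, a cullin adaptor protein, had 1381 with ethanol and 730.2, 785 and 767 in the others, so here the ethanol array stood apart. The next Kctd7 probe set did not share this, at -0.0021. Ciao3, a cytosolic iron-sulphur assembly protein, had 1134, 673, 751 and 1076, low in both aldosterone-alone arrays.

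The other genes among the lowest 12 were the cell-surface protein Cd99l2 (-0.73), the ubiquitin ligase Rnf220 (-0.68), the muscle filamin Flnc (-0.67) and the protrudin gene Zfyve27 (-0.67). Another Flnc probe set differed by 0.65 in the opposite direction, and the next Cd99l2 probe set by 0.0030. Spry2, an inhibitor of receptor tyrosine kinase signalling through ERK, had 597 with ethanol, 379 with 1 nM, 449 with 100 nM and 489 after spironolactone. The ethanol array was the highest and the 1 nM array the lowest, the difference was -0.66, and a second, dim probe set differed by -0.35. The rest past 1.5-fold lay between -0.60 and -0.67. They were Tmem41a, Gtf2ird2, the endosomal GTPase Rab35, the antiviral adaptor Mavs and the histone demethylase Kdm5c. The ubiquitin ligase Znrf1, Cep112, Tmem14c and 1 gene with a clone-like name completed them. The next probe sets of Kdm5c, Mavs and Cep112 differed by 0.20, 0.01 and 0.63, and the 6 of Kdm5c ranged from -0.78 to 0.20. The other Znrf1 probe sets differed by -0.28 and 0.70.

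Low signal was the feature most of these 44 genes had in common, with 25 (56.8%) under 840 against 28.5% of all compared genes. The kind of probe set stood out among the lower genes. Of these 22 genes 15 (68.2%) were read by a probe set that the maker marks as matching several transcripts, against 31.8% of all compared genes and 6 of 22 higher genes (27.3%). Probe sets of the x class read 10 of the 44 (22.7%), against 5.58% of all. The median of the mean signals was 892 for the higher and 651 for the lower genes, against 1410.1 for all compared genes. The part of cross-matching in these differences was not tested.

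A second probe set gives another reading of the same RNA on the same arrays, which serves here as the nearest thing to a repeat measurement. Across the 4124 compared genes with at least 2 probe sets at or above the median signal, the differences of the brightest and the next brightest probe sets had a Pearson correlation of 0.09, and 54.6% had the same sign. With both probe sets at or above 420 the correlation was 0.18 over 2376 genes, and the median gap between them was 0.11. These points share arrays and RNA and differ in signal, so the coefficients are descriptions across genes. Of the 13 higher genes with a second probe set, 8 kept the direction there, 1 (Tsc22d4) at 1.5-fold or more, and the median of the second reading was 0.09 where that of the first was 0.67. Of 14 lower genes 8 kept the direction, 0 at 1.5-fold or more, and 2 (Flnc and Cep112) were past 1.5-fold the other way. The median there was -0.02 where that of the first was -0.67. The first reading was the one the genes were picked on.

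**Figure D3:**
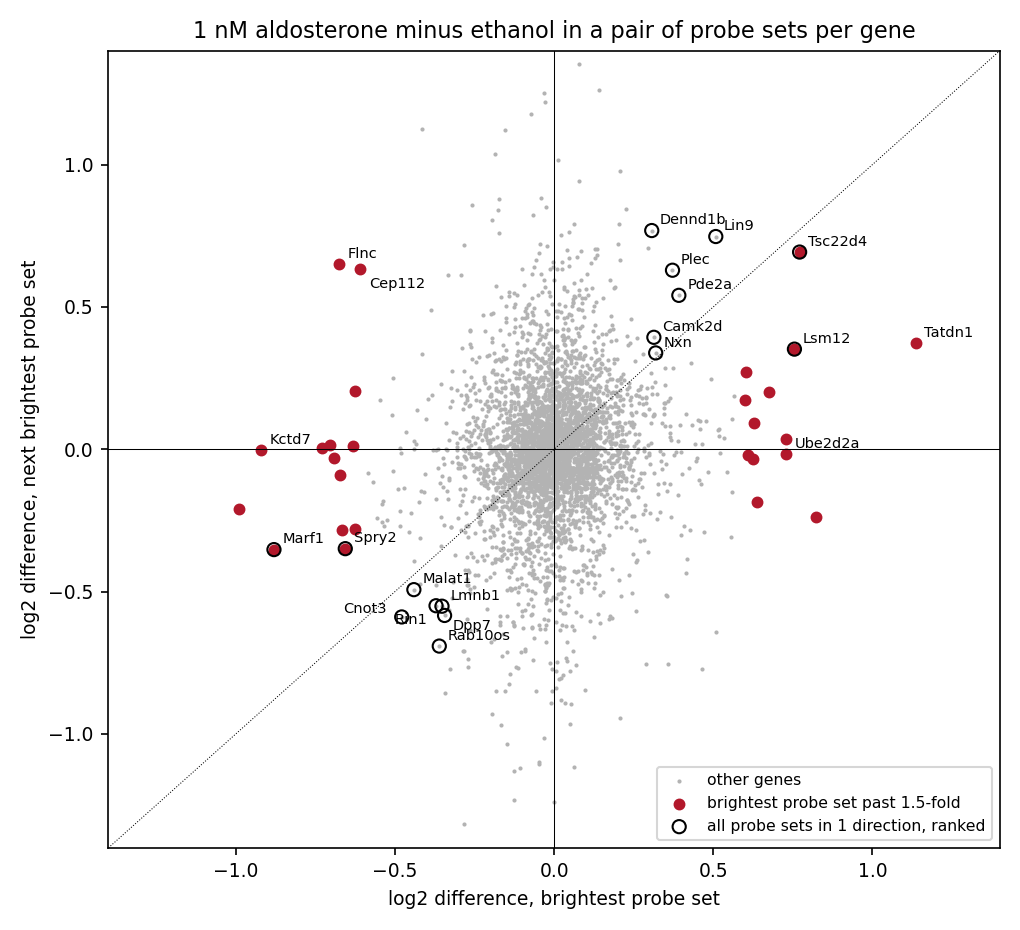
Log2 difference of 1 nM aldosterone minus ethanol in the brightest probe set of a gene (horizontal) and in its next brightest (vertical), for 4124 genes; 14 genes lie outside the axes. Red points are genes past 1.5-fold in the brightest probe set, circles are the 16 genes ranked by agreement of all probe sets, and the red points gather around 0 on the vertical axis rather than on the dotted line of equality.

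Genes were therefore also ranked by the smallest difference over all their probe sets of at least median signal, where all had 1 sign. Of the 4124 genes, 1631 met the sign condition. Malat1, an abundant nuclear long noncoding RNA, had the broadest backing, with 7 probe sets between -0.44 and -0.62. Its brightest probe set had signals of 17411 with ethanol, 12829.8 with 1 nM aldosterone, 13205 with 100 nM and 12179 after spironolactone. The ethanol array was above the 3 others in all 7 probe sets, so the difference was not particular to the 1 nM array.

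The other lower genes of this ranking were Cnot3, a subunit of the CCR4-NOT deadenylase (-0.48 and -0.59), Lmnb1, the nuclear envelope protein lamin B1 (-0.35 and -0.55), the RAS effector Rin1 (-0.37 and -0.55), the lysosomal peptidase Dpp7 (3 probe sets, -0.34 to -0.58), the noncoding Rab10os (-0.36 and -0.69), Marf1 and Spry2. Dpp7 had signals of 1921, 1514, 1636 and 1710.4 in the order ethanol, 1 nM, 100 nM and spironolactone, with 1 nM lowest. Cnot3 had 544, 391, 479 and 459, again with 1 nM lowest.

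The higher genes of the ranking were led by Tsc22d4 (0.77 and 0.69) and Lin9, a subunit of the DREAM and MMB cell cycle complexes (0.51 and 0.75). Their second probe sets were dim, with mean signals of 67.9 and 109.6. Lin9 had signals of 1065 with ethanol, 1515 with 1 nM, 1354 with 100 nM and 1173 after spironolactone, so both aldosterone-alone arrays were the upper pair. Pde2a, a phosphodiesterase stimulated by cGMP (0.39 and 0.54), had 477, 626, 755 and 599.9. Its other probe set read 125, 182, 151 and 104, so the order of the arrays differed between them and the excess of 1 nM over ethanol was common to both. Camk2d, a calmodulin-dependent kinase, had 3 probe sets between 0.31 and 0.68 and signals of 830, 1032, 1069 and 851 in the brightest. The cytolinker Plec (0.37 and 0.63), Lsm12, Dennd1b (0.31 and 0.77) and the redox protein Nxn (0.32 and 0.34) made up the 8. The second Dennd1b probe set had a mean signal of 56.4, just above the median of 56.1.

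The genes best known to answer corticosteroids were mostly close to ethanol at this dose. Fkbp5, a co-chaperone that lowers the affinity of steroid receptors, had the widest difference among those chosen by name that passed the limit. Its brightest probe set had signals of 1315 with ethanol, 1880.35 with 1 nM, 1735 with 100 nM and 1414 after spironolactone. Both aldosterone-alone arrays were above both others, and the difference with 1 nM was 0.52, yet a second Fkbp5 probe set had 199.9 with ethanol, 209.5 with 1 nM, 329 with 100 nM and 250.4 after spironolactone, a difference with 1 nM of 0.07. Sgk1 had 801, 935, 1810.4 and 1424 on its single probe set, so 1 nM lay just above ethanol, at 0.22, and well under the other arrays.

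Tsc22d3, which encodes GILZ, had 711 with ethanol and 703 with 1 nM against 1365 with 100 nM. The difference with 1 nM was -0.02, and -0.04 and 0.58 in the others above the median signal. Klf9, a Krüppel-like transcription factor, had 1349, 1393, 1844 and 1640.3, and its 6 probe sets above the median signal ranged from -0.45 to 0.39 at 1 nM. The clock gene Per1, whose mean signal of 312 lay under the limit, had 231 and 224 with ethanol and 1 nM. The glucocorticoid receptor gene Nr3c1 had 1959 and 1998, with probe sets between -0.31 and 0.50. Nr3c2, the endogenous mouse receptor gene, read 2.35 and 21.8, under the median signal, on a probe set designed for the mouse transcript. Scnn1a, the alpha subunit of the epithelial sodium channel, was also dim, with 58.2 and 89.3.

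**Figure D4:**
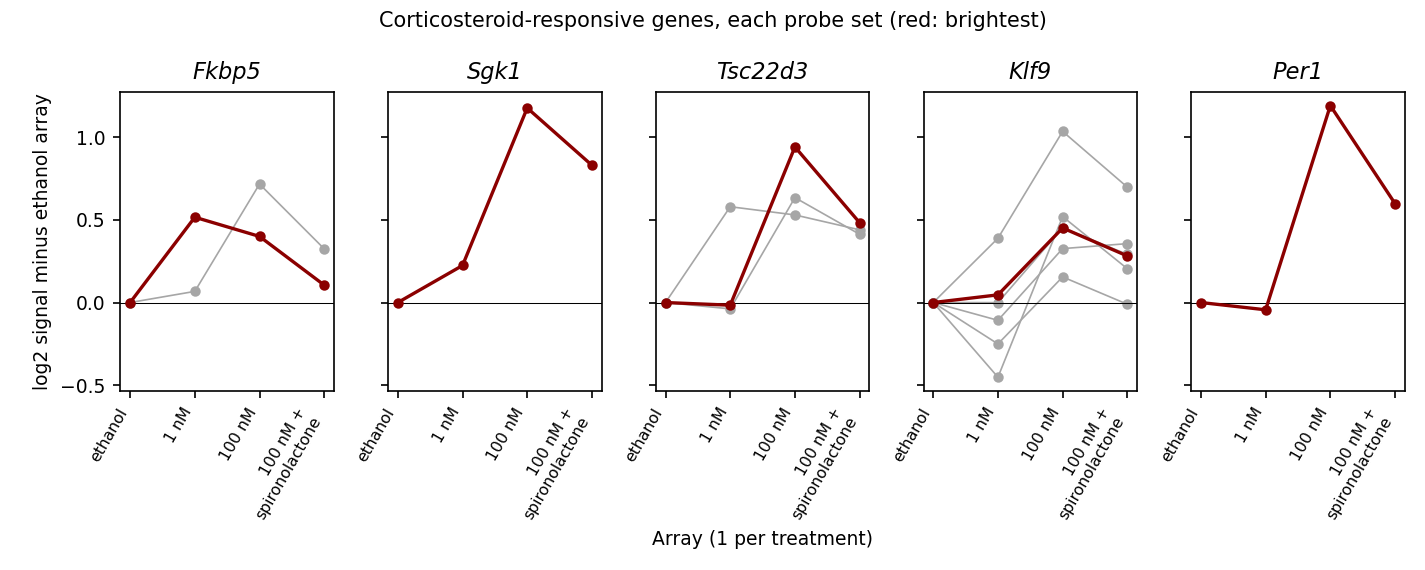
Log2 signal relative to the ethanol array in each of the 4 arrays for every probe set of at least median signal of Fkbp5, Sgk1, Tsc22d3, Klf9 and Per1 (red: brightest probe set, grey: others; 1 array per point). At 1 nM the brightest probe sets lie between -0.04 and 0.22 except that of Fkbp5 at 0.52, and at 100 nM they lie between 0.40 and 1.19.

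Over the whole corticosteroid-responsive list, 19 of 35 members on the array passed the limit and 10 of these were above 0. The median difference was 0.01 against -0.01 for all compared genes, and it was -0.04 without probe sets matching several transcripts. Past 1.5-fold, 1 member (Tfcp2l1) was higher and 0 were lower. Rhob differed by 0.21, the stress gene Ddit4 by -0.26 and the metallothionein gene Mt1 by -0.07. Of a list of nephron genes known to answer aldosterone 9 entered, with a median of 0.0012 and 0 past 1.5-fold in either direction; Plaur, the urokinase receptor, differed by 0.20 and the anchoring protein Lad1 by -0.23. Among 12 sodium transport and WNK-SPAK genes the range was -0.17 (Fxyd5, a regulator of the sodium pump) to 0.13 (Cab39, a scaffold of the SPAK kinase, with the bicarbonate cotransporter Slc4a4 at the same value), and all 12 were within 1.2-fold. The next Cab39 probe set differed by -0.24, and the 4 of Slc4a4 above the median signal ranged from -0.45 to 0.21. Steroid receptor chaperones and coregulators had 0 of 19 members past 1.5-fold and a median of -0.03, with Hspa8 at -0.19 and Ncoa2 at 0.13. The 4 Hspa8 probe sets above the median signal ranged from -0.57 to 0.28.

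Of the signalling and clock lists, between 90.9% and 95.2% of members lay within 1.2-fold, near the 92.0% of all compared genes. The ERK feedback list had 9 of 12 members below 0 and a median of -0.07, with Spry2 its 1 member past 1.5-fold, the AP-1 subunit Fosl1 at -0.25 and the zinc finger factor Egr1 at -0.20. In the immediate early list, Klf6 differed by 0.52 in its brightest probe set (1693 with ethanol, 2424 with 1 nM, 2552 with 100 nM and 2707 after spironolactone) and its 4 other probe sets by between 0.01 and 0.46. The list's median was -0.02, with 9 of 18 above 0. Clock genes had a median of -0.06 over 11 members, from Nfil3 at -0.29 to Ciart at 0.19, with the kinase Csnk1e at -0.12. The TGF-beta and Smad list lay at -0.02, with Bmp1 at -0.27, the activin receptor Acvr1b at -0.24 and Tgif1 at -0.23.

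Insulin signalling and lipogenesis was the list with the most even direction among the metabolic ones. Of 22 members 18 were below 0, against 3720 of the 6935 compared genes, and the median was -0.05. The transcription factor Foxo3 had 1202 with ethanol, 802 with 1 nM, 925 with 100 nM and 1244 after spironolactone, a difference of -0.58, though its other probe set above the median signal differed by -0.08. Akt1, the kinase upstream of it, differed by -0.26 and by -0.20 to -0.64 over 3 probe sets. Rptor, the mTORC1 subunit, went the other way at 0.51. Most of the 18 were small differences, and 19 of 22 members lay within 1.2-fold.

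Mitochondrial fatty acid oxidation had a median of 0.04 and 14 of 22 members above 0. Beside Cpt2, Hadhb, a subunit of the trifunctional enzyme, differed by 0.41, but its next probe set by -0.27, and Ech1 differed by 0.20. Of the other carnitine shuttle genes, Cpt1a differed by -0.15, Slc25a20 by -0.02 and Crat, which is not on the list, by 0.63. Crat was read by a probe set of the x class, and its next probe set differed by -0.03. Cholesterol synthesis lay at -0.02, with Dhcr7 at 0.39, Mvd at -0.23 and Sc5d at 0.11. Hypoxia and glycolysis genes lay at -0.05, within a range of -0.26 to 0.06, with Epas1 at -0.20 and Pfkl at -0.19. Respiratory chain subunits lay at -0.02 with all 41 within 1.2-fold, Atp5o (-0.25), Ndufv1 (-0.16) and Uqcrc1 (-0.15) being the widest. The next Atp5o probe set differed by 0.09.

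Cytosolic ribosomal protein genes differed by little but nearly all in 1 direction. Of 31 members 28 were below 0, with a median of -0.06, and 29 lay within 1.2-fold; Rps27 (-0.47), Rpl12 (-0.44) and Rpl11 (-0.17) were the widest. Above a signal of 3360, where most of them lie, 55.2% of all genes were below 0. After quantile normalization, which gives every array the same distribution of signals, the ribosomal median was 0.0043. Whether scaling gave the direction was not tested. Housekeeping genes had a median of -0.04, or 0.0040 after quantile normalization, with Actb at -0.15, Gusb at -0.22 and Polr2a at 0.21.

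The cell cycle lists differed in spread. The S phase list had a median of -0.03 and all 36 members within 1.2-fold, from Pola2 (-0.21) and Uhrf1 (-0.20) to Ccne2 (0.21). The next Uhrf1 probe set differed by 0.19. The G2, mitosis and kinetochore list lay at 0.01, with Cenpb its 1 member past 1.5-fold, Cdc25c at -0.27 and the spindle motor Kif11 at 0.22. The other Kif11 probe sets above the median signal differed by 0.03 and -0.10. Among CDK inhibitors and p53 targets the median was -0.01, and 18 of 22 (81.8%) lay within 1.2-fold. Cdkn2a was far below the rest, followed by Zmat3 at -0.37, while the inhibitor Cdkn1b was at 0.37, with its other probe set at 0.03.

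Inflammatory lists had more members below 0 than above, by small amounts. NF-kB, cytokine and chemokine genes had a median of -0.09 and 12 of 17 members below 0, with Birc3 at -0.32 and Tnfaip2 at -0.25, while the inhibitor Nfkbib was at 0.43. Interferon genes had a median of -0.08 and 9 of 10 members below 0, all within 1.2-fold, with Psmb8 at -0.16, Irf9 at -0.15 and Ddx58 at -0.14. Unfolded protein and amino acid stress genes lay at 0.0024, with Herpud1 at -0.28, Pdia4 at 0.20 and Ddit3 at -0.17. Oxidative defence genes lay at -0.0025, with Gstm1 at -0.26, Cat at 0.21 and Gclm at -0.19. The matrix list lay at -0.03, with Ccn2 at -0.21, Sparc at -0.14 and Col4a1 at -0.13, and tight junction and polarity genes at 0.01, with Mpp5 at 0.24, Tjp1 at 0.21 and Cgn at -0.20. The next Cgn probe set differed by 0.27, while the 3 of Mpp5 above the median signal ranged from -0.20 to 0.24. Those of Sparc ranged from -0.14 to 0.22. In these 6 lists 0 members were past 1.5-fold in either direction in the brightest probe set, where the share over all compared genes was 0.634%.

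**Figure D5:**
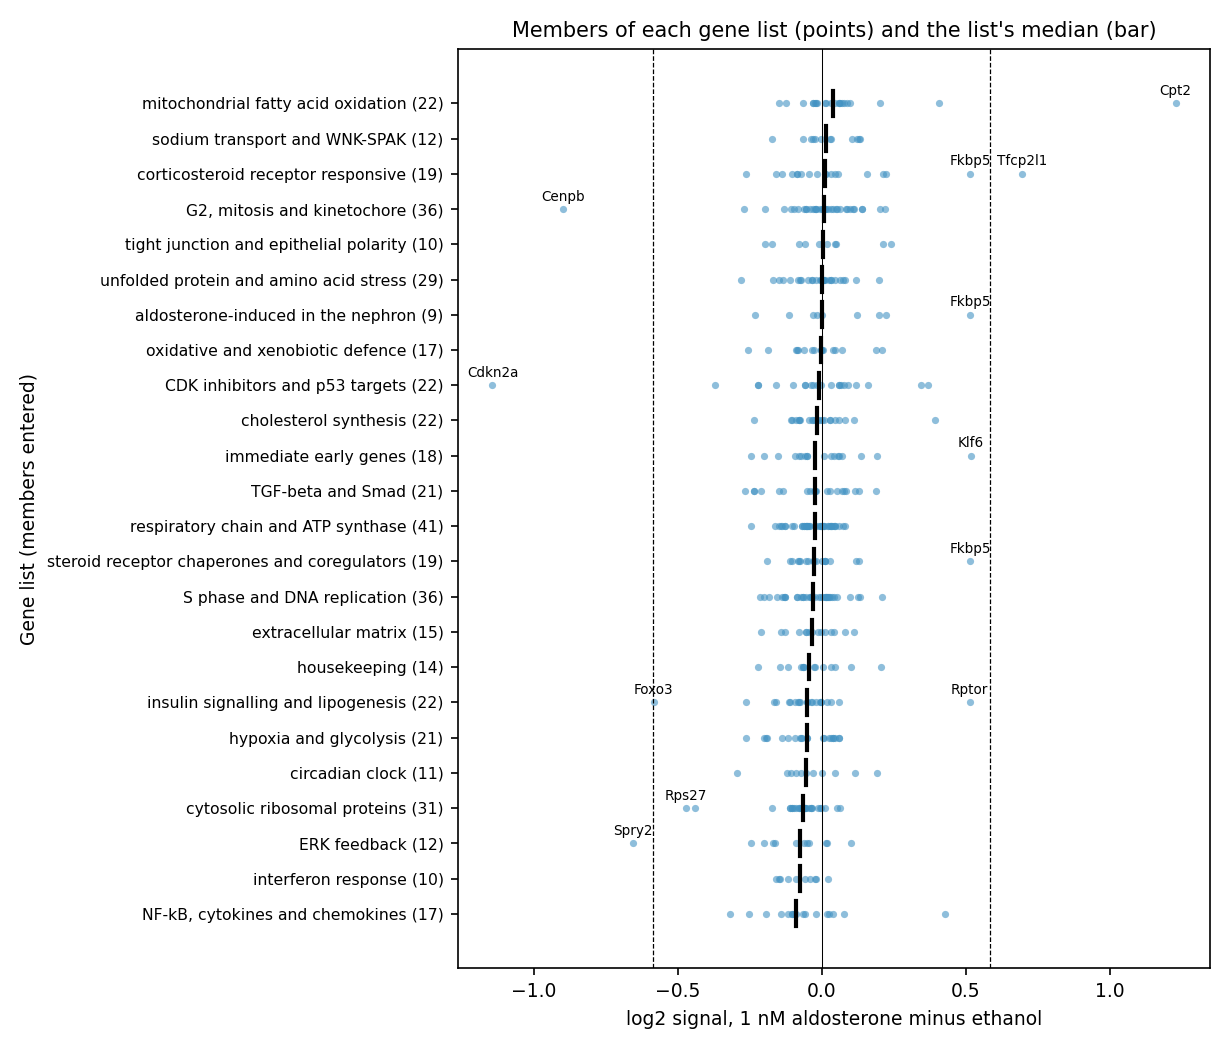
Log2 difference of 1 nM aldosterone minus ethanol for each member that passed the signal limit (points) and the median of each of 24 gene lists (bars); dashed lines mark 1.5-fold. The medians lie between -0.09 and 0.04, and single genes such as Cpt2, Tfcp2l1, Cdkn2a, Cenpb and Spry2 stand apart from their lists.

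The other 2 arrays place each difference beside the higher dose and the antagonist, though with single arrays they do not assign it to 1 of the compared arrays. Genes picked for a wide gap between a pair of arrays tend to have one of them at an extreme, so the counts that follow describe the picked genes. Of the 22 higher genes, 8 had both other arrays nearer to 1 nM than to ethanol and 3 (Csgalnact2, Nrg1 and Vkorc1l1) had both nearer to ethanol. In 9 the 100 nM array was nearer to 1 nM and the spironolactone array nearer to ethanol, as in Ldlrad3, Atp13a2, Lsm12 and Tfcp2l1, and in 2 the reverse held. Over all compared genes with a difference above 0 these shares were 27.7%, 24.9%, 22.3% and 25.04%. In 0 of the 22 did 100 nM go beyond 1 nM, against 32.9% of all compared genes above 0. Of the 22 lower genes, 4 had both other arrays nearer to 1 nM, 7 both nearer to ethanol, 5 only the 100 nM array nearer to 1 nM and 6 only the spironolactone array. Over all compared genes below 0 the shares were 28.4%, 29.1%, 21.9% and 20.7%, near these counts.

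The arrangement with 1 nM and spironolactone together had the most genes past 1.5-fold of 3 ways to pair the arrays, and was looked for after the values had been seen. Ethanol and 100 nM together were above 1 nM and spironolactone together by at least 1.5-fold in 5 genes, Cdkn2a, Cenpb, Marf1, Pithd1 and Tmem14c, and below them by that much in 0. Ethanol and spironolactone were parted from both aldosterone-alone arrays by that much in 0 genes, and ethanol and 1 nM from the arrays with 100 nM in 1, Sgk1. At 1.2-fold, 1 nM and spironolactone were the lower pair in 17 genes and the higher pair in 26. Both aldosterone-alone arrays were higher in 21 and lower in 13, and both 100 nM arrays higher in 6 and lower in 4. In Marf1 it was seen in the brightest probe set only: the 2 others read 198.6, 155.6, 133 and 153.6, and 161, 124, 46.3 and 84.9 (ethanol, 1 nM, 100 nM, spironolactone), with 100 nM lowest. The low second probe set of Pithd1 did not show it either. Lmnb1 showed the first parting in both probe sets, with 2395, 1876, 2563 and 1735 in the brightest (ethanol, 1 nM, 100 nM, spironolactone) and 1170.4, 799, 1186 and 711 in the next. Plec showed it in the opposite sense in the brightest, with 2507, 3244, 2351 and 3347. Its next read 272, 419.9, 375 and 545, the same order of pairs, but with 100 nM nearer to 1 nM than to ethanol. Kmt2d and Polr2a, also looked up, showed that opposite sense in the brightest probe set only. Their next ones read 87.4, 51.1, 60.6 and 83.4, and 84.0, 133, 169 and 138. In the first parting, 1 nM aldosterone and the antagonist array share a level with no order of dose. A treatment and a difference between single cultures or hybridisations therefore cannot be told apart here.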

How the data were processed

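The authors deposited one linear intensity for each probe set, made by MAS5 according to the submitters' processing notes. Its version and detection calls are not known, since no source used here gives them. A scaling target is not stated there either, but the trimmed mean was 500.0 on every array. RNA of 4 cultures (1 array per treatment, 250 ng of total RNA, biotin-labelled) had been hybridised to Affymetrix arrays. Of 45101 probe sets 34958 had 1 gene symbol in the platform annotation, 932 had several and 9211 had none; 34754 found their Entrez identifier in the RefSeq gene table (GRCm38.p6), with 0 symbols updated, and 64 controls were left out.

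Differences are log2 signal with 1 nM aldosterone minus log2 signal with ethanol, with no offset and no further scaling, computed with Python 3.11.15, pandas 2.3.3 and NumPy 2.4.6 and drawn with matplotlib 3.10.9. No test was run, since a group holds 1 array, which limits the precision of every value. Called higher or lower means past 1.5-fold or 2-fold. Named genes were the 12 highest and 12 lowest, the 8 highest and 8 lowest by the smallest difference over agreeing probe sets, the 3 widest members of each gene list and 8 fixed genes. Clone-like names were passed over but counted. The other genes past 1.5-fold, and a few list members (Mt1, Rhob, Plaur, Cpt1a and Slc25a20), were named after their values were seen. The members and lists were chosen with earlier results of these data known. Values of list members are those of the brightest probe set unless stated. Counting was tested on simulated data. Alternatives were quantile normalization, the median over probe sets, leaving out probe sets marked as matching several transcripts, an offset of 50, and other signal limits.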

Additional observations from a re-analysis of the deposited data

How the results depend on the processing

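The counts past 1.5-fold were 23 higher and 22 lower after quantile normalization, and 24 and 19 when the median over probe sets was taken. That median gave 2 genes at least 2-fold lower. Leaving out probe sets marked as matching several transcripts (5477 genes compared) gave 19 higher and 10 lower genes at 1.5-fold, and 0 lower at 2-fold. From the median signal of all probe sets upward there were 287 higher and 228 lower at 1.5-fold, and 71 and 38 at 2-fold, among 11049 genes. At 2 times the limit there were 12 and 7 at 1.5-fold, and 1 higher at 2-fold. That limit leaves the 1933, 1495 and 1530 genes of the brighter signal bins. With an offset of 50 before log2, 0 genes had all probe sets past 1.5-fold, so Tsc22d4 no longer did. Of the 43 named genes past 1.5-fold, 43 stayed past it after quantile normalization and 35 with the offset. With the median over probe sets 21 stayed, 20 were smaller and 2 changed sign, Cd99l2 (0.0030) and Cep112 (0.012). Without the marked probe sets 24 stayed, 6 were smaller and 5 changed sign: Ube2d2a (-0.016), Flnc (0.65), Mavs (0.013), Kdm5c (0.20) and Crat (-0.034). The other 8, among them Cdkn2a, Cenpb and Tcl1b3, had no value there. These changes follow from which probe set is read. List medians near 0 crossed it under some settings. Leaving out a replicate was not possible with 1 array per treatment.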
